A study of Mus musculus with 6 samples.

Results

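Ror1, Ror2, Ryk, Ptk7, Prickle1, Prickle2, Vangl1, Vangl2, Celsr1 and Daam1 encode receptors and other components of the noncanonical Wnt and planar cell polarity pathway. They were found by symbol among the 56691 Ensembl identifiers counted in each library, with version numbers ignored, and all 10 were found. All 10 also had at least 10 counts in at least 3 libraries and were among the 15673 genes tested. They were divided by role into 4 noncanonical Wnt receptors (Ror1, Ror2, Ryk and Ptk7), 5 core polarity genes (Prickle1, Prickle2, Vangl1, Vangl2 and Celsr1) and 1 effector (Daam1). The study sequenced bulk RNA from the palatal shelves of wild-type C57BL/6J mouse embryos at E14.0, from which the anterior and the posterior 1/3 were microdissected. Each region had 3 libraries, and the labels give no treatment or mutation in either region. The study describes the 6 samples as independent biological ones, and the labels do not say which embryos or how many gave each library, so the p-values measure the spread between these 6 libraries. A microdissected region holds mesenchyme, epithelium, vessels and other cells, and in bulk RNA fewer cells of a type cannot be told apart from less RNA per cell.

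Planar cell polarity is the alignment of cells within the plane of a tissue. In its core module the cadherin Celsr1 and a Frizzled receptor with Dishevelled gather on one side of a cell, while Celsr1, Vangl and Prickle gather on the opposite side of its neighbour. Wnt5a and related noncanonical Wnts feed into this module through Ror1, Ror2, Ryk and Ptk7, and Daam1, a formin, links Dishevelled to the actin cytoskeleton. In the mouse, Wnt5a and Ror2 take part in growth of the palatal shelves and in movement of their mesenchymal cells.

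All 10 are protein-coding genes, and none shared an exon base with another gene on its strand in GENCODE M21 (GRCm38). Prickle1 lies at chr15:93499114-93595891 on the minus strand, Prickle2 at chr6:92370908-92706155 on the minus strand, and Ptk7 at chr17:46564471-46629504 on the minus strand. Daam1 lies at chr12:71831078-71992333 on the plus strand. Ror1 lies at chr4:100095791-100444765 on the plus strand, Ror2 at chr13:53109312-53286124 on the minus strand, and Ryk at chr9:102834917-102908305 on the plus strand. Vangl1 lies at chr3:102153583-102204693, Vangl2 at chr1:172000960-172028444 and Celsr1 at chr15:85898929-86033777, all on the minus strand. RefSeq start sites (GRCm38.p6) were matched for 8 of the 10, all but Vangl1 and Celsr1. The 250 bases before each start were searched on both strands for 4 motifs, namely the GC box GGGCGG, the homeodomain core TAATTA, the TCF/LEF motif CTTTGAT and the E-box CACGTG. The windows below are those of Prickle1, Ptk7 and Daam1, the genes whose 2 regions did not overlap in level, and show which of these letters lie before their starts. They read 5′ to 3′ along the gene, with the GC box of either strand in capitals, and 1 run of capitals in the first Prickle1 window holds 2 overlapping GC boxes. The windows are chr15:93595903-93596152 and chr15:93519521-93519770 for the 2 starts of Prickle1 (minus strand), chr17:46629505-46629754 for Ptk7 (minus strand) and chr12:71830818-71831067 for the first of 2 Daam1 starts (plus strand).
Prickle1, start 1: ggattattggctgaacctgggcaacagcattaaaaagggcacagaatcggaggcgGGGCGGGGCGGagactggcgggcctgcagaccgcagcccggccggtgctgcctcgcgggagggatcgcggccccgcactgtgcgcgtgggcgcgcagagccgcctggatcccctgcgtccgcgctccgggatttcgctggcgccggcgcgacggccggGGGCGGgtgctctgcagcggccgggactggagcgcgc
Prickle1, start 2: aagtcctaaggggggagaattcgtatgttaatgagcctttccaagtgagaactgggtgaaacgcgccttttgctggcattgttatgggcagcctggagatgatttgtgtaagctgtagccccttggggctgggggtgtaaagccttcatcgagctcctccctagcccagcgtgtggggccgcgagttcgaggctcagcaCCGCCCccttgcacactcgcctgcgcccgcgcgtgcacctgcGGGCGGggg
Ptk7: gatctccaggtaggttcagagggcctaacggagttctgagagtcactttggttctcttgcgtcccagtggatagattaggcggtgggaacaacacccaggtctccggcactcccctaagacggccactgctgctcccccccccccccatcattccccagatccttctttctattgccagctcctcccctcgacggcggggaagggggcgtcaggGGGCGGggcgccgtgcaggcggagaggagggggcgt
Daam1, start 1: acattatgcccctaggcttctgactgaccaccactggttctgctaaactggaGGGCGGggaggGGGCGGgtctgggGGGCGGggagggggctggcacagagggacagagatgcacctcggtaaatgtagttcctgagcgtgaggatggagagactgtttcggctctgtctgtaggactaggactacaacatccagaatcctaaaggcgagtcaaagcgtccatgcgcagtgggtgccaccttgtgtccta
The windows hold 3 and 2 GC boxes for Prickle1, 1 for Ptk7 and 3 for Daam1, and none of the other 3 motifs. GC boxes also lay before genes whose regions overlapped, with 1 for Ror1, 4 for Ror2, 2 for Ryk, 2 for Vangl2 and 3, 2, 0 and 1 for the 4 starts of Prickle2, whereas the second Daam1 start had none. The second Prickle2 window held 1 TCF/LEF motif. Over all 32851 RefSeq windows of this length, 32.7% held a GC box, 4.84% the homeodomain core, 3.21% the TCF/LEF motif and 6.02% the E-box. GC content was 74% and 60.8% in the Prickle1 windows, 64% in that of Ptk7 and 58% and 52.8% in those of Daam1. It was 62.4% for Ror1, 73.2% for Ror2, 65.2% for Ryk, 73.6% for Vangl2 and 46.4% to 70% for the starts of Prickle2, against a median of 52.4% over all windows. These matches describe the letters and were not tested as binding sites.

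Depth ranged from 11378736 to 15172733 reverse-stranded counts per library, and 3 counts, the upper limit that a count of 0 allows for counting error alone, corresponded to 0.198 to 0.264 CPM (counts scaled to the size of the library). The smallest count of a member in any library was 384, for Vangl1. Posterior replicates 2 and 3 stood apart from the other 4 libraries in ways the labels do not name. Their shares of multimapping reads were 6.12% and 5.94%, with 8.45% to 8.77% in the other libraries, and their mitochondrial shares of counts 0.973% and 1.14%, with 2.70% to 2.97% in the others. Each result was therefore also fitted with a term for these 2 groups of libraries (the library-group term). As both libraries are posterior, that fit compares posterior replicate 1 alone with the 3 anterior libraries. It assumes that posterior replicate 1 varies like the others. The dissection labels held in the anterior palate genes Shox2, Msx1 and Alx1, whose summed level was 658 to 778 CPM in the anterior and 8.08 to 23.0 CPM in the posterior libraries. Other cell types differed too, since each of 7 skeletal muscle markers passed the test with a higher posterior level, and their sum was 8.04 to 9.69 CPM in anterior and 512 to 887 CPM in posterior libraries. Of the 5 mesenchyme markers, 2 were called higher in the posterior and 1 higher in the anterior palate.

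Between the regions, 1 of the 10 genes was called, Prickle1, which rose in the posterior palate. Calls are adjusted p-values below 0.05 in edgeR's quasi-likelihood test, with Benjamini-Hochberg adjustment over all genes tested. None was called higher in the anterior palate, although 3 of the 10 had an unadjusted p below 0.05, all of them with a higher posterior level, a share near the 25.2% of all genes tested with such a p. Over all genes tested 7.46% were called, 4.87% with a higher posterior and 2.59% with a higher anterior level, and 1 in 10 is near that background. Log2 fold changes, posterior over anterior, were positive for 6 genes and negative for 4, with a median of 0.08 against -0.0040 over all genes tested. Every posterior library lay above every anterior library for 3 genes (Prickle1, Ptk7 and Daam1), an arrangement that 14.7% of all genes tested showed. No gene had every anterior library above every posterior library, which held for 13.4% of all genes tested. The remaining 7 genes overlapped between the regions.

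**Figure D1:**
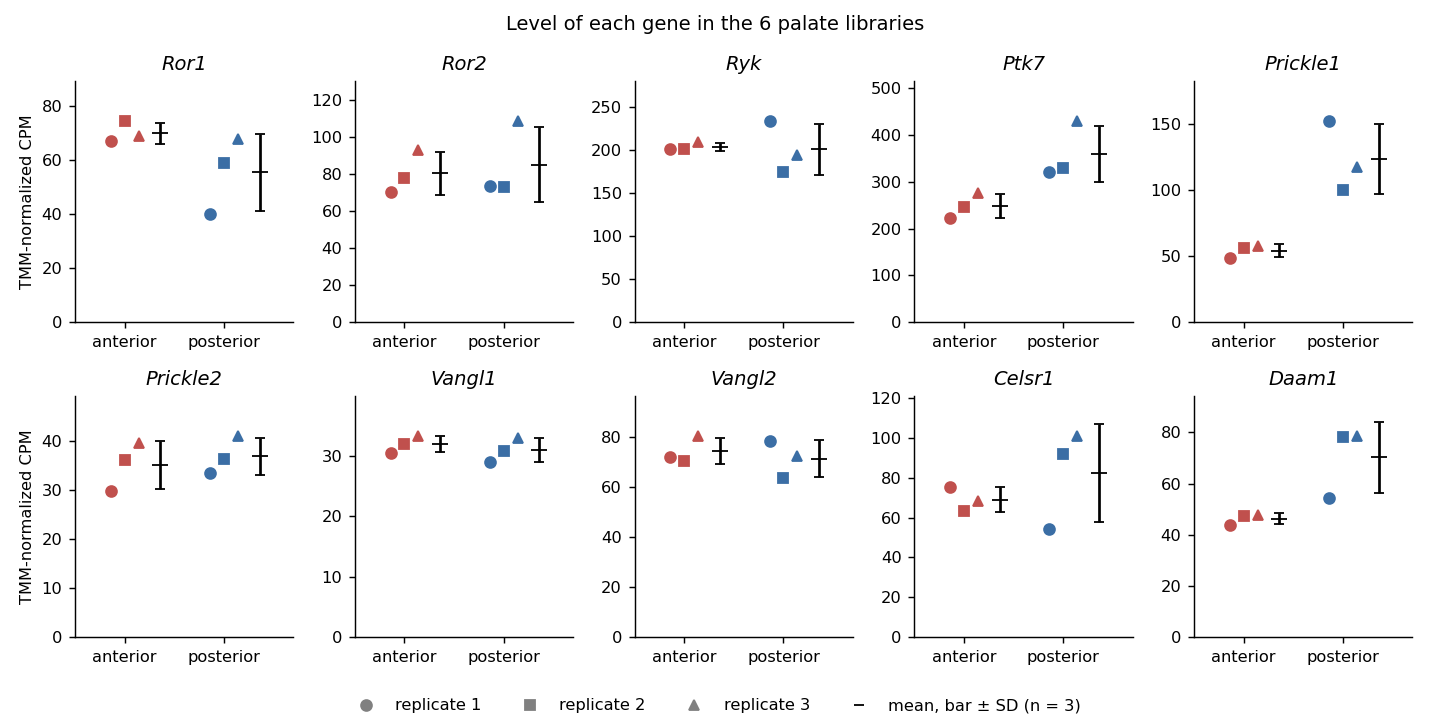
TMM-normalized CPM (y axis, from 0, with its own scale for each gene) of the 10 genes in the 3 anterior (red) and 3 posterior (blue) libraries. Symbols mark the replicate number and black bars the mean ± SD (n = 3). The regions part for Ptk7, Prickle1 and Daam1 and overlap for the other 7 genes.

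Prickle1 encodes a LIM-domain protein of the core module that acts at the membrane with Vangl. Its level was 48.5, 56.0 and 57.6 CPM in anterior replicates 1 to 3 and 152, 99.7 and 118 CPM in posterior replicates 1 to 3. The lowest posterior library was thus well above the highest anterior one, and posterior replicate 1 was the highest of all. Anterior libraries averaged 54.0 ± 4.87 CPM (SD, n = 3) and posterior libraries 123 ± 26.5 CPM (SD, n = 3), a 2.28-fold difference. The log2 fold change was 1.19 (SE 0.16, 95% interval 0.80 to 1.57, edgeR adjusted p = 0.00535), and 7.37% of the genes tested had a larger absolute value. The two-sided exact permutation test over the 6 libraries gave p = 0.1, the smallest that 3 against 3 can give. With the library-group term the log2 fold change was 1.49 (edgeR adjusted p = 0.000303), which was larger than without it. Across all 17 fits, the main one and its alternatives, the log2 fold change of Prickle1 ran from 1.01 to 1.49 and the adjusted p from 1.35e-08 to 0.0376.

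Prickle2, the close relative of Prickle1, did not pass the test. It was at 29.7, 36.1 and 39.5 CPM in the anterior and 33.5, 36.2 and 40.9 CPM in the posterior libraries. These ranges lie almost on top of each other. The log2 fold change was 0.07 (SE 0.14, 95% interval -0.25 to 0.39, edgeR adjusted p = 0.750), an interval that lies wholly below that of Prickle1. The ratio of Prickle1 to Prickle2, taken per transcript length as a ratio of TPM (counts scaled to exon length and then to the library), was 3.25, 3.08 and 2.90 in the anterior libraries and 9.01, 5.47 and 5.71 in the posterior libraries. Prickle1 was the more abundant of the pair in all 6 libraries, by a geometric mean of 3.07-fold (anterior) and 6.55-fold (posterior).

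Vangl1 and Vangl2, the multipass membrane proteins that bind Prickle, and Celsr1, the cadherin that joins neighbouring cells, did not pass the test either. Vangl1 was at 30.5, 32.0 and 33.2 CPM in the anterior and 29.0, 30.7 and 32.9 CPM in the posterior libraries. Its log2 fold change was -0.05 (SE 0.10, 95% interval -0.28 to 0.19, edgeR adjusted p = 0.781). Vangl2, mutated in loop-tail mice, was at 72.0, 70.6 and 80.4 CPM in the anterior and 78.3, 63.5 and 72.5 CPM in the posterior libraries. Its log2 fold change was -0.06 (SE 0.11, 95% interval -0.31 to 0.20, edgeR adjusted p = 0.757). The 2 Vangl genes had the narrowest intervals of the 10, and neither interval reached beyond -0.31 or 0.20. The TPM ratio of Vangl2 to Vangl1 was 2.42, 2.26 and 2.48 in the anterior and 2.77, 2.12 and 2.25 in the posterior libraries, with overlapping ranges.

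Celsr1 was at 75.6, 63.1 and 68.4 CPM in the anterior and 54.5, 92.0 and 101 CPM in the posterior libraries. Its posterior values lay on both sides of the anterior ones, with the library of low value being posterior replicate 1 and those of high value the 2 libraries that stood apart. The log2 fold change was 0.26 (SE 0.22, 95% interval -0.25 to 0.76, edgeR adjusted p = 0.473). It was -0.34 with the library-group term (adjusted p = 0.139) and 0.49 without posterior replicate 1 (adjusted p = 0.00273). Its direction therefore depended on which posterior libraries were used. Without posterior replicate 1, 46.4% of all genes tested were called.

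Among the receptors, Ptk7 and Ror1 had the largest differences, in opposite directions, and neither passed the test. Ptk7, a pseudokinase receptor that works with the core module, was at 223, 245 and 275 CPM in the anterior and 320, 330 and 429 CPM in the posterior libraries. Every posterior library was above every anterior one (two-sided exact permutation p = 0.1). The mean was 248 ± 26.0 CPM (SD, n = 3) against 360 ± 60.1 CPM (SD, n = 3), and the log2 fold change was 0.54 (SE 0.14, 95% interval 0.20 to 0.87, edgeR adjusted p = 0.0695). It was called by DESeq2 (adjusted p = 0.0105), without posterior replicate 1 (0.62, edgeR adjusted p = 0.00451) and when genes of low count were kept (adjusted p = 0.0252). DESeq2 called 12.6% of all genes tested and the fit without the low-count filter 7.14%. With the library-group term the log2 fold change was 0.37 (adjusted p = 0.225).

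Ror1 and Ror2 are receptor tyrosine kinases of 1 family that bind Wnt5a. Ror1 was at 66.8, 74.3 and 68.7 CPM in the anterior and 39.9, 58.8 and 67.7 CPM in the posterior libraries. The regions overlapped, and posterior replicate 1 was the lowest of the 6. The log2 fold change was -0.33 (SE 0.18, 95% interval -0.76 to 0.09, edgeR adjusted p = 0.293). Without posterior replicate 1 it was -0.14 (edgeR adjusted p = 0.202). With the library-group term, which rests on posterior replicate 1, it was -0.81 and was called (95% interval -1.07 to -0.55, edgeR adjusted p = 0.00446), in a fit that called 7.61% of all genes tested. Ror2 was at 70.6, 77.9 and 93.2 CPM in the anterior and 73.5, 73.3 and 109 CPM in the posterior libraries. Its log2 fold change was 0.08 (SE 0.18, 95% interval -0.34 to 0.51, edgeR adjusted p = 0.795). The TPM ratio of Ror1 to Ror2 was 0.697, 0.702 and 0.543 in the anterior and 0.40, 0.590 and 0.459 in the posterior libraries. Ror2 was thus the more abundant of the pair per transcript length in all 6 libraries.

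Ryk, an atypical receptor kinase that binds Wnts through a WIF domain, was at 201, 202 and 209 CPM in the anterior and 233, 175 and 194 CPM in the posterior libraries. The anterior libraries lay within the posterior range. The log2 fold change was -0.02 (SE 0.12, 95% interval -0.30 to 0.26, edgeR adjusted p = 0.922). It was 0.20 with the library-group term (95% interval 0.011 to 0.38, edgeR adjusted p = 0.222).

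Daam1 was at 43.9, 47.3 and 47.8 CPM in the anterior and 54.2, 78.0 and 78.5 CPM in the posterior libraries. Every posterior library exceeded every anterior one (exact permutation test, two-sided, p = 0.1), and posterior replicates 2 and 3 were farther from the anterior libraries than posterior replicate 1 was. The log2 fold change was 0.60 (SE 0.15, 95% interval 0.24 to 0.96, edgeR adjusted p = 0.0590), which missed the threshold. It was 0.23 with the library-group term (adjusted p = 0.184) and 0.76 without posterior replicate 1 (edgeR adjusted p = 9.23e-05). A correction for transcript length gave 0.42 and called it (adjusted p = 0.0346), with 8.74% of all genes tested called in that fit. DESeq2 called it as well (adjusted p = 0.0105), as did the fit without the low-count filter (adjusted p = 0.0162).

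**Figure D2:**
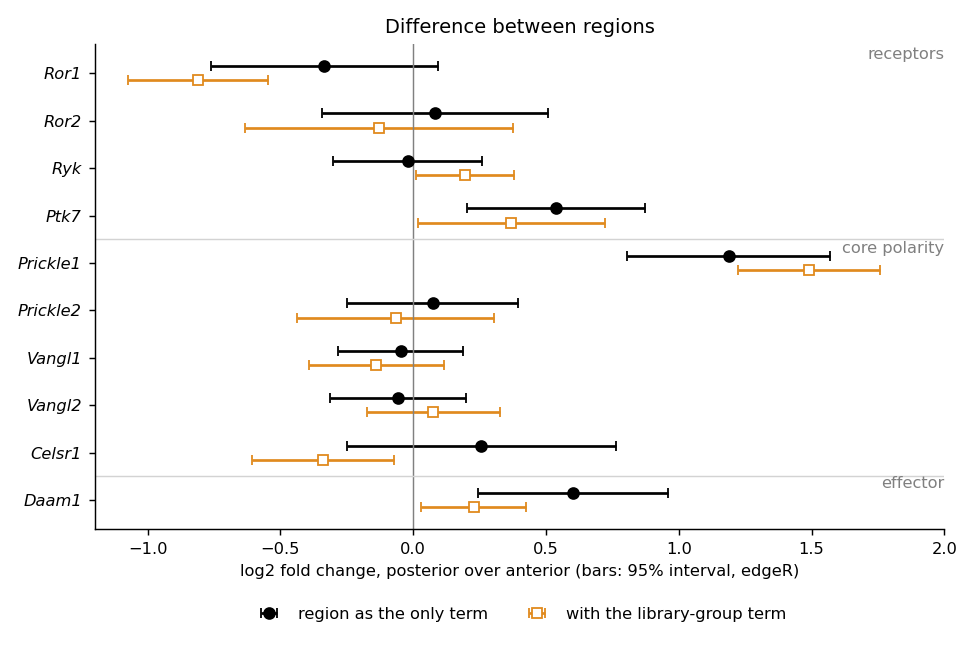
Log2 fold change, posterior over anterior (x axis), of each gene with its 95% interval from edgeR, with region as the only term (black) and with the library-group term (orange). The intervals of Prickle1, Ptk7 and Daam1 lie right of 0 in both fits, Ror1 is farther to the left with the library-group term, and Ror2, Ryk, Prickle2, Vangl2 and Celsr1 change side.

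Noncanonical Wnt receptors and core polarity genes were then set side by side. The median log2 fold change was 0.03 over the 4 receptors (range -0.33 to 0.54) and 0.07 over the 5 core polarity genes (range -0.06 to 1.19). The ranges overlap, and Prickle1 alone of the core genes lay above the highest receptor. With the library-group term the medians were 0.03 and -0.07. As a description with no test, 0 of 4 receptors and 1 of 5 core genes were called. The 2 classes differed more in level than in their difference between regions. Median TPM of the receptors was 108 (anterior) and 116 (posterior), and that of the core genes 21.2 and 27.5. Summed TPM of the receptors was 412 and 509, against 128 and 196 for the core genes. TPM, unlike CPM, was not TMM-normalized, and Ryk, Vangl1 and Vangl2 had higher posterior means in TPM but lower ones in CPM.

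**Figure D3:**
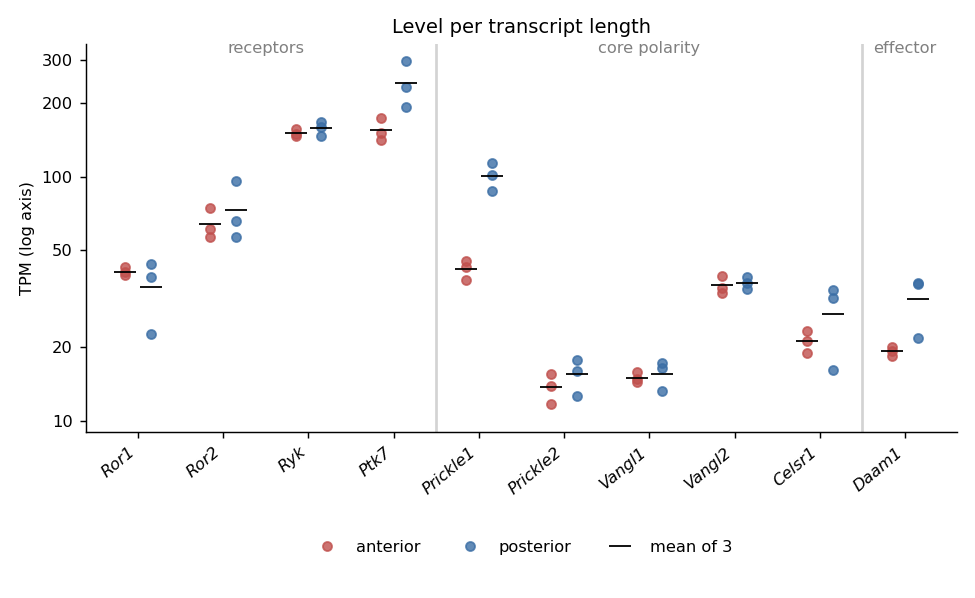
TPM (y axis, log scale) of the 10 genes, ordered by role, in the 3 anterior (red) and 3 posterior (blue) libraries, with the mean of 3 as a line. Ptk7 and Ryk hold the highest means in both regions and Prickle2 and Vangl1 the lowest.

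Per transcript length, the anterior order ran from Ptk7 (155 ± 16.9 TPM, SD, n = 3) and Ryk (152 ± 4.87 TPM) through Ror2 (64.0 ± 9.52 TPM), Prickle1 (41.9 ± 3.68 TPM), Ror1 (40.9 ± 1.69 TPM) and Vangl2 (35.8 ± 2.93 TPM). Below them came Celsr1 (21.2 ± 2.16 TPM), Daam1 (19.3 ± 0.822 TPM), Vangl1 (15.02 ± 0.686 TPM) and Prickle2 (13.7 ± 1.94 TPM). In the anterior palate the neighbours whose ranges overlapped were Ptk7 with Ryk, Prickle1 with Ror1, Celsr1 with Daam1 and Vangl1 with Prickle2. In the posterior palate Prickle1 (101 ± 13.2 TPM, SD, n = 3) was the third of the 10, below Ptk7 (242 ± 52.7 TPM) and Ryk (159 ± 10.6 TPM), and its range overlapped that of Ror2 (72.8 ± 20.6 TPM). Vangl2 (36.7 ± 2.09 TPM), Ror1 (35.2 ± 11.2 TPM), Daam1 (31.7 ± 8.51 TPM), Celsr1 (27.5 ± 9.88 TPM), Vangl1 (15.6 ± 2.12 TPM) and Prickle2 (15.5 ± 2.60 TPM) followed, each overlapping the next in range.

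The other genes of the pathway were read from the same fit, in 7 lists holding 62 genes, of which 60 were tested (Wnt9b and Celsr3 were not). The lists were chosen with results of these data known. Of the 60, 9 rose in the posterior palate and 1 in the anterior palate, and 50 were not called. That is 16.7% called, against 7.46% of all genes tested, while the fit with the library-group term called 8 posterior and 6 anterior genes, not all the same ones, against 7.61% of all genes tested in that fit. Of the 8 tested genes that complete the core module or encode Dishevelled and its partners none was called (log2 fold changes -0.87 to 0.35), nor any of the 4 ciliary polarity effectors (-0.13 to 0.52). Named after their values were seen, Ankrd6 and Celsr2 were called with a higher anterior level under the library-group term (edgeR adjusted p = 0.0189 and 0.0461), and Ankrd6 also by DESeq2 (adjusted p = 0.00590) and with the length correction (adjusted p = 0.0292).

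Of the 5 noncanonical Wnt ligands tested, Wnt5a fell and Wnt11 rose in the posterior palate, and 3 were not called. Wnt5a, the main ligand of the Ror receptors, was at 230, 256 and 266 CPM in the anterior and 155, 120 and 147 CPM in the posterior libraries. Its log2 fold change was -0.84 (SE 0.12, edgeR adjusted p = 0.00700), and -0.69 with the library-group term (adjusted p = 0.0162). Wnt11 was at 8.73, 10.1 and 9.17 CPM in the anterior and 55.8, 60.7 and 83.0 CPM in the posterior libraries. Its log2 fold change was 2.83 (SE 0.18, edgeR adjusted p = 0.000194), and 2.58 with the library-group term (adjusted p = 0.000147). Neither gene overlapped between the regions. The TPM ratio of Wnt11 to Wnt5a was 0.0717, 0.0746 and 0.0651 in the anterior and 0.681, 0.958 and 1.07 in the posterior libraries. Per transcript length, Wnt5a exceeded Wnt11 in every library but posterior replicate 3. Both ligands kept their calls in every alternative fit run, leaving out any 1 replicate included. Of the 4 noncanonical Wnt receptors, Ptk7 was called in 3 of the 17 fits, Ror1 in 1, and Ror2 and Ryk in none.

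Of the 10 Frizzled receptors, Fzd4 alone was called. It was at 40.1, 42.0 and 38.3 CPM in the anterior and 68.3, 92.0 and 97.3 CPM in the posterior libraries, a log2 fold change of 1.10 (SE 0.14, edgeR adjusted p = 0.00451). The other 9 ranged from -1.203 to 0.79. The lowest of them, named after its values were seen, was Fzd5, with every anterior library above every posterior one (edgeR adjusted p = 0.0512). It was called by DESeq2 (adjusted p = 0.00143) and with the length correction (adjusted p = 0.0162). With the library-group term its log2 fold change was -1.97. By DESeq2, Fzd1 was also called with a higher posterior level (adjusted p = 0.00870) and Fzd10 with a higher anterior level (adjusted p = 0.0328). They too were named after their values were seen. Rspo3, a secreted R-spondin that raises Frizzled levels at the membrane, was the 1 gene called of 14 modulators. It was at 22.3, 17.2 and 33.5 CPM in the anterior and 66.8, 59.2 and 60.8 CPM in the posterior libraries (log2 fold change 1.36, SE 0.22, edgeR adjusted p = 0.0115). Without anterior replicate 1 its adjusted p was 0.0677. Named after their values were seen, other modulators were called in other fits. Gpc4 and Gpc6 had a higher anterior and Sfrp5 a higher posterior level under the library-group term (edgeR adjusted p = 0.00852, 0.0220 and 0.0350), and DESeq2 called Gpc4 and Sfrp4 with a higher anterior level (adjusted p = 0.0207 and 0.00146). Of 13 cytoplasmic effectors, 2 were called higher in the posterior palate. Another, Fmnl2, named after its values were seen, was called higher there by DESeq2 (adjusted p = 0.00521) and with the length correction (adjusted p = 0.0461). Kif26a, a kinesin family member, had a log2 fold change of 0.85 (SE 0.13, edgeR adjusted p = 0.00797). Daam2, the relative of Daam1, had 0.45 (SE 0.10, edgeR adjusted p = 0.0415), which was 0.23 with the length correction (adjusted p = 0.228) and 0.37 with the library-group term (adjusted p = 0.0783). Its call was also lost with library size as the only scaling (adjusted p = 0.0524) and without any 1 library other than posterior replicate 1 (adjusted p from 0.0768 to 0.202).

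The Fat and Dachsous system is a second polarity module, built of very large protocadherins that bind each other across cell borders. Of its 6 genes 4 rose in the posterior palate. Fat4 was at 120, 107 and 125 CPM in the anterior and 158, 443 and 475 CPM in the posterior libraries, and its partner Dchs1 at 168, 175 and 201 CPM against 243, 416 and 455 CPM. Fat1 was at 223, 278 and 245 CPM in the anterior and 395, 811 and 960 CPM in the posterior libraries, and Dchs2 at 5.46, 4.36 and 3.98 CPM against 9.13, 38.0 and 43.3 CPM. In all 4 genes posterior replicate 1 was above the anterior libraries but far below posterior replicates 2 and 3. The log2 fold changes were 1.61 for Fat4 (SE 0.37, edgeR adjusted p = 0.0422) and 1.04 for Dchs1 (SE 0.23, edgeR adjusted p = 0.0346). They were 1.54 for Fat1 (SE 0.30, edgeR adjusted p = 0.0232) and 2.71 for Dchs2 (SE 0.54, edgeR adjusted p = 0.0249). With the length correction they were 1.11, 0.74, 1.10 and 2.37 in the order given, all called (edgeR adjusted p 0.00827 to 0.0204). With the library-group term they were 0.43, 0.42, 0.67 and 0.98, in that order, with Dchs1 no longer called (adjusted p = 0.0556). Without any 1 library other than posterior replicate 1, none of the 4 was called, with adjusted p from 0.0642 to 0.175, while the log2 fold changes were 1.28 to 1.62 for Fat1, 1.36 to 1.65 for Fat4, 0.87 to 1.11 for Dchs1 and 2.36 to 2.85 for Dchs2. With all 6 libraries, limma-voom did not call Fat4 (adjusted p = 0.0700) or Dchs2 (adjusted p = 0.109).

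**Figure D4:**
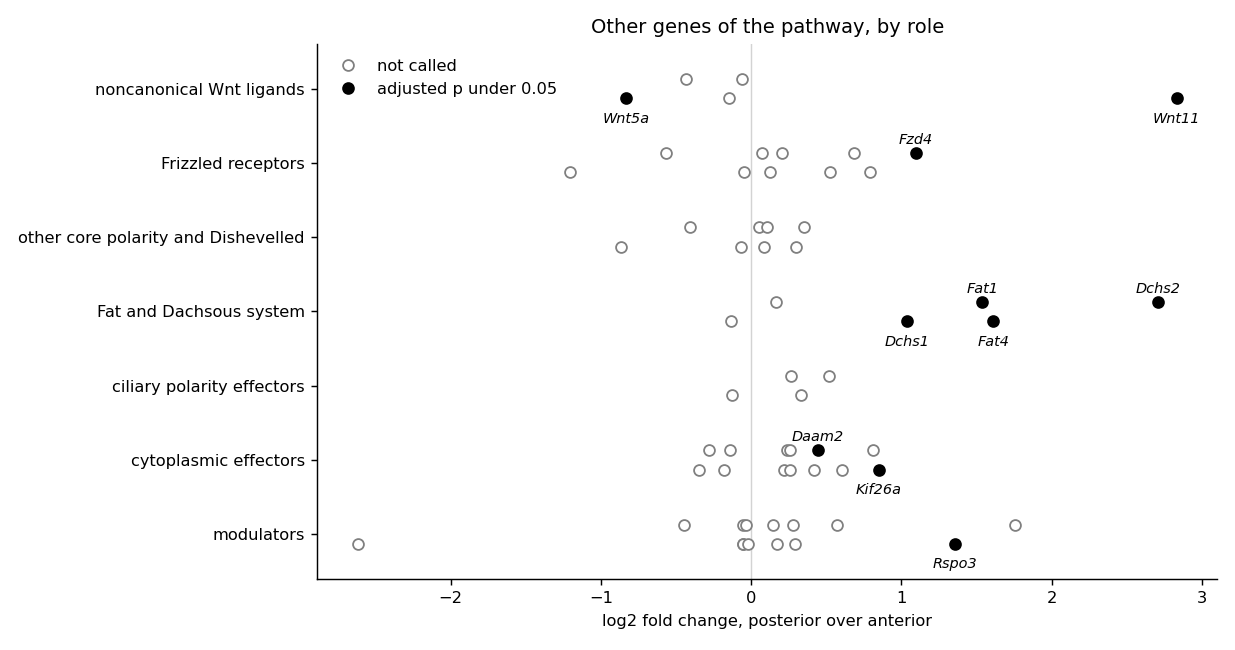
Log2 fold change, posterior over anterior (x axis), of the 60 other pathway genes tested, by list (y axis), with filled symbols for genes with an edgeR adjusted p below 0.05. Wnt5a lies left of 0, and the other 9 called genes, 4 of them of the Fat and Dachsous system, lie right of it.

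Markers of other cell types stand beside these values. The 7 skeletal muscle markers, all called, reached a median log2 fold change of 6.81. Of 3 chondrocyte markers tested Col2a1 was called with a higher posterior level, the summed chondrocyte level being 126 to 167 CPM in the anterior and 507 to 630 CPM in the posterior libraries. Summed epithelial markers were at 1125 to 1252 CPM in the anterior and 794 to 1362 CPM in the posterior libraries, with 1 of 6 called, Trp63, higher in the anterior palate. In the main fit none of the endothelial, myeloid, glial, neuronal or osteoblast markers was called. The 3 osteoblast markers tested nevertheless lay lower in every posterior library, with log2 fold changes of -0.63 for Runx2, -1.39 for Sp7 and -2.09 for Ibsp (edgeR adjusted p = 0.0925, 0.0767 and 0.309), and all 3 were called with the library-group term. The summed osteoblast level was 1661 to 3086 CPM in anterior and 137 to 1519 CPM in posterior libraries. DESeq2 also called epithelial Krt5 and osteoblast Runx2 and Sp7 with a higher anterior level (adjusted p = 0.00243, 0.0196 and 0.00150). It called chondrocyte Acan, endothelial Kdr and neuronal Elavl3 with a higher posterior level (adjusted p = 0.00323, 0.0338 and 0.0107). With the library-group term the log2 fold change was -0.46 for endothelial Cdh5, 0.71 for epithelial Krt14 and 0.95 for chondrocyte Sox9. Without it these were 0.14, 0.12 and 0.35. The summed level of the 4 neuronal markers ranged from 33.2 to 39.3 CPM in the anterior and from 15.9 to 228 CPM in the posterior libraries, and 1 marker, the osteoblast gene Bglap, had at most 3 counts in any library and was at 0 in 4 of 6. The part of these cell types in the levels of Prickle1, Ptk7, Daam1 or the other pathway genes was not tested.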

How the data were processed

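RNA from 3 anterior and 3 posterior E14.0 palate samples was sequenced in bulk, and samples were grouped by the region in their labels. The authors deposited, as raw counts, the reads on each Ensembl gene for each library, unstranded and for each strand, without normalization. The submitters' processing notes name HISAT2, StringTie and DESeq2 and the build mm10, whereas the columns of the deposited tables are those STAR writes. Which annotation release was counted is not given in the sources used here. Reverse-stranded counts were used, 18.95 to 23.1 times those of the other strand. Counts of multimapping reads and of unmapped reads (2.71% to 4.65%), like other reads assigned to no gene, stayed out of library sizes and tests. Symbols (52073 of 56691 identifiers, 35 of them with the same version) and exon lengths came from GENCODE M21.

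From these counts, CPM (TMM-normalized) and TPM (reverse counts over summed exon length) were computed. The test was edgeR 4.0.16 (R 4.3.3) on genes that reached 10 counts in 3 or more libraries, with region as the only term and Benjamini-Hochberg adjustment. SE is the log2 fold change over the root of F. The study's own fit used DESeq2, run here (1.42.0) as an alternative. The others were RLE scaling, library size alone, unstranded counts, limma-voom (limma 3.58.1), 10 or more counts required in all 6 libraries, all genes without a count filter, a replicate block, the library-group term, a transcript-length correction (lowess, span 0.3) and leaving out each replicate. The main edgeR fit alone was tested on simulated data, drawn without a group of libraries that stood apart. Replicates differed beyond sampling noise (chi-square per gene 3.64 to 66.1).

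All 10 genes are named, together with the other pathway genes that passed the test. Some that passed only in an alternative fit were also named, after their values were seen. The members, lists, library-group term and length correction were chosen with earlier results of these data known.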

Additional observations from a re-analysis of the deposited data

How the results depend on the processing

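Prickle1 kept its direction and its call in every alternative and with every replicate left out. Over the 10 genes, 87 of the values from all 6 libraries kept direction and side of the threshold, 6 passed it and 7 changed direction. With 1 replicate left out these counts were 49, 3 and 8. The cause of these changes was not tested. With the library-group term the values that changed direction were -0.13 for Ror2, 0.20 for Ryk, -0.066 for Prickle2, 0.076 for Vangl2 and -0.34 for Celsr1, and with the length correction -0.11 for Prickle2 and -0.034 for Celsr1, none of them called. Leaving out 1 replicate gave -0.13 to 0.19 for Ror2, -0.14 to 0.071 for Ryk, -0.037 to 0.16 for Prickle2, -0.092 to 0.0011 for Vangl1 and -0.12 to 0.023 for Vangl2. The 10 genes had 3 calls under DESeq2 (12.6% of all genes tested) and 3 without the low-count filter (7.14%), all higher in the posterior palate. They had 2 with the length correction (8.74%), both posterior, 2 with the library-group term (7.61%), 1 of them anterior, and 1 to 4 (all posterior) with 1 replicate left out, the 4 being without posterior replicate 1 (46.4%). The core polarity median was -0.066 with the library-group term, -0.11 with the length correction and -0.037 to 0.16 with 1 replicate left out. The receptor median was then -0.061 to 0.13.

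Other pathway genes called numbered 17 under DESeq2 and 17 without the low-count filter, and 4 to 38 with 1 replicate left out (3 to 27 posterior, 1 to 11 anterior), the 38 being without posterior replicate 1. Those higher in the anterior palate were 6 under DESeq2, 6 with the library-group term, 5 without the filter, 4 with library size alone, 4 with the length correction, and 2 each with RLE scaling, limma-voom and unstranded counts. Of the values of the 10 called pathway genes 91 kept their call and 9 lost it with all libraries, and 34 kept and 26 lost it with 1 left out. Of all genes tested, DESeq2 called 1978 (1341 posterior, 637 anterior), the fit without the filter 2162 (1516 and 646), and the fits with 1 replicate left out 498 to 7119 (312 to 3877 and 140 to 3242). The labels do not give pairs, so the replicate numbers were not taken as pairs. Deviations of same-numbered libraries from their region means had correlations of -0.0527, 0.045 and 0.0355. These values cannot decide on pairing, as posterior replicate 1 differed strongly from posterior replicates 2 and 3. With the replicate block 829 genes were called, 237 of them anterior, and 1 of the 10 members, Prickle1, and not Fat4, Dchs2 or Daam2 (adjusted p 0.0632, 0.0516 and 0.0731). Depth limits the 10 genes little, as their smallest count was 384, and the spread of 3 libraries per region sets the intervals.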
